A study of Rattus norvegicus with 25 samples.

Results

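The genes described here are the glucocorticoid and mineralocorticoid receptors, the enzyme that regenerates their ligand, both of the best-known FK506-binding co-chaperones of the receptor, and 3 genes that glucocorticoids induce in many tissues. They are Nr3c1, Nr3c2, Hsd11b1, Fkbp4, Fkbp5, Tsc22d3, Sgk1 and Cdkn1a. They were chosen by name: every probe set whose platform annotation gives exactly 1 of these symbols was taken, which gave 1 probe set for each of the 8 genes, 8 of 29214 probe sets in all. All 8 were among the 14607 probe sets kept because their mean level over the 25 arrays was no lower than the median probe set's.

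Striatal RNA came from adolescent male rats of the Lister Hooded strain at PND 35 to 42, and each rat was measured on its own Affymetrix rat gene 1.0st array. The offspring formed 3 groups by what their dams received. Con-Pf rats (n = 10) came from dams whose daily food was matched to what nicotine-drinking dams had eaten, with water freely available. Nic rats (n = 7) came from dams whose drinking fluid held nicotine bitartrate from before mating. Con rats (n = 8) came from dams with free food and tap water. The labels and methods name no genetic change and no drug given to the offspring themselves. The sources used here do not give the litter of each rat. The study's methods list fewer pair-fed dams than there are Con-Pf rats here, so some of these rats must have shared a litter. The p-values measure the spread between rats and would be too small where rats shared a litter. Con-Pf 9 and Con-Pf 10 have a Con-Pf title beside a description that names a control, and were kept as Con-Pf. The study's methods give group sizes in more than one way: those in its statistical section are the sizes reached when both rats are counted as Con. With that grouping 27 probe sets were called in Con-Pf minus Con, against 184 as grouped here, and 0 of the 8 genes. However, the fold changes the study printed for Dusp1, Fos, Nr4a1 and Arc match those found with both rats kept as Con-Pf. For Dusp1, Con-Pf minus Nic was 0.64 in log2 units with both rats as Con-Pf, and 0.73 with both counted as Con.

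In rats the main glucocorticoid is corticosterone. It binds the glucocorticoid receptor in the cytosol, where heat shock protein 90 and FK506-binding co-chaperones hold the receptor ready, and the bound receptor enters the nucleus and raises or lowers the transcription of many genes. The mineralocorticoid receptor binds the same hormone with higher affinity. In brain, the induced genes are often used as readouts of hormone action, and Fkbp5 closes a feedback loop by lowering the affinity of the receptor for its ligand.

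The promoters of the members the results turn on are printed first, because receptor binding near a gene is the usual route to the induction just described. RefSeq windows of 300 bases around annotated transcript starts, 250 before and 50 after (build GRCr8), were at hand for 6 of the 8 genes, 11 windows in all. For Tsc22d3 the window with a TATA box is shown, 250 bases before the start at chrX:109010035-109010284 on the minus strand, with the TATA box in capitals. For Fkbp5 the 250 bases before the start at chr20:6543556-6543805 on the minus strand are shown, with no motif marked. For Cdkn1a 138 bases at chr20:7150682-7150819 on the plus strand are shown, with a match to the p53 half-site in capitals.
Tsc22d3: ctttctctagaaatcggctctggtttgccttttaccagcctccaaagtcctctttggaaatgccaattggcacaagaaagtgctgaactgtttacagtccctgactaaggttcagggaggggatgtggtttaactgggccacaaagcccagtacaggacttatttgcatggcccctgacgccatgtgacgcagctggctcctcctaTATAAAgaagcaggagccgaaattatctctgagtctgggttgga
Fkbp5: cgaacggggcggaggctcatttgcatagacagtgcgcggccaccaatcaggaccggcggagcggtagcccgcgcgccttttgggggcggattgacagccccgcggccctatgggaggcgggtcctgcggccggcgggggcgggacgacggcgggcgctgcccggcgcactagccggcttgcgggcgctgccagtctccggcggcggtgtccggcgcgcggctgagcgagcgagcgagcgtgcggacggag
Cdkn1a: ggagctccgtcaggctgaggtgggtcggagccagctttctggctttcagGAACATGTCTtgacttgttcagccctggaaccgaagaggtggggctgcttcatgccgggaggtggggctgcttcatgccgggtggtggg

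The half-site of the receptor element, AGAACA or its reverse complement TGTTCT, was found in 0 of the 11 windows, and in 20.7% of all 33469 windows. The full element, with both half-sites facing each other across 3 bases, was found in 0 of the 11 windows and in 0.0149% of all windows. This says only that these letters are not in these windows. The TATA box, TATAAA on the sense strand, was found in 3 of the 11 windows, 1 of Tsc22d3 and 2 of Sgk1, and in 8.80% of all windows. The p53 half-site, whose consensus reads the same on both strands, was found in 1 of the 11, that of Cdkn1a, and in 7.98% of all windows. It lies at bases -201 to -192 before the start. An AP-1 site, TGANTCA, which reads the same on both strands, was found in 1 window of Sgk1 and in 7.33% of all windows.

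Levels are log2 values as the authors normalised them, so that a difference of 1 is a doubling. Each test compared rats for 1 probe set at a time. Differences between 2 probe sets on the same array and means over several are also given, without a test. They compare rats and not the levels of the genes. The arrays correlated at 0.967 to 0.997. Con 3 and Con 5 stood apart from the other arrays, with the lowest mean level of 64 measured ribosomal protein genes (10.78 and 10.66, where Con-Pf rats spanned 11.01 to 11.24, Nic rats 11.04 to 11.20 and the other Con rats 10.95 to 11.28). Results that rest on them are given with and without them. Of 11 listed markers of striatal projection neurons 9 passed the filter, among them Drd1, Drd2 and Penk. Their mean level lay between 11.82 and 12.02 in every rat. Markers of other cells passed too, so that this does not test the tissue label. Of 8 cortical and thalamic neuron markers 2 were measured, Slc17a7 and Cck. The mean of both was 7.61 ± 0.23 in Con-Pf rats, 8.47 ± 0.90 in Nic rats and 8.03 ± 0.57 in Con rats (SD). Its part in the group values was not tested.

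Of the 8 genes, 2 differed between Con-Pf and Con rats. Tsc22d3 was lower and Cdkn1a higher in Con-Pf rats, whereas Fkbp5, lower on average by about as much as Tsc22d3, missed the threshold. A probe set was called at a Benjamini-Hochberg adjusted p under 0.05 from limma, and by this rule 1.26% of all probe sets were called in Con-Pf minus Con. Of the members 1 was called higher, against 1.00% of all probe sets, and 1 lower, against 0.260%. At an unadjusted p under 0.05 limma gave 3 members and the methods' t-test 4, and limma 22.0% of all probe sets. By adjusted p the methods' t-test called 1 member, Tsc22d3, and 66 probe sets in all. Between Nic and Con rats 0 of the 8 were called by limma, against 0.00% of all probe sets. At an unadjusted p under 0.05 limma gave 1 member and the methods' t-test 2, and limma 16.2% of all probe sets. Between Con-Pf and Nic rats 0 of the 8 were called, against 0.185% of all probe sets, with 2 members at an unadjusted p under 0.05 by limma, 2 by the methods' t-test, and 4.36% of all probe sets by limma. The thresholds the study used (unadjusted p under 0.01, and a log2 difference of 0.5 or more either way) were reached by 0 of the 8 members with limma in each comparison, and by 0.199% of all probe sets in Con-Pf minus Con, 0.0205% in Nic minus Con and 0.103% in Con-Pf minus Nic.

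**Figure D1:**
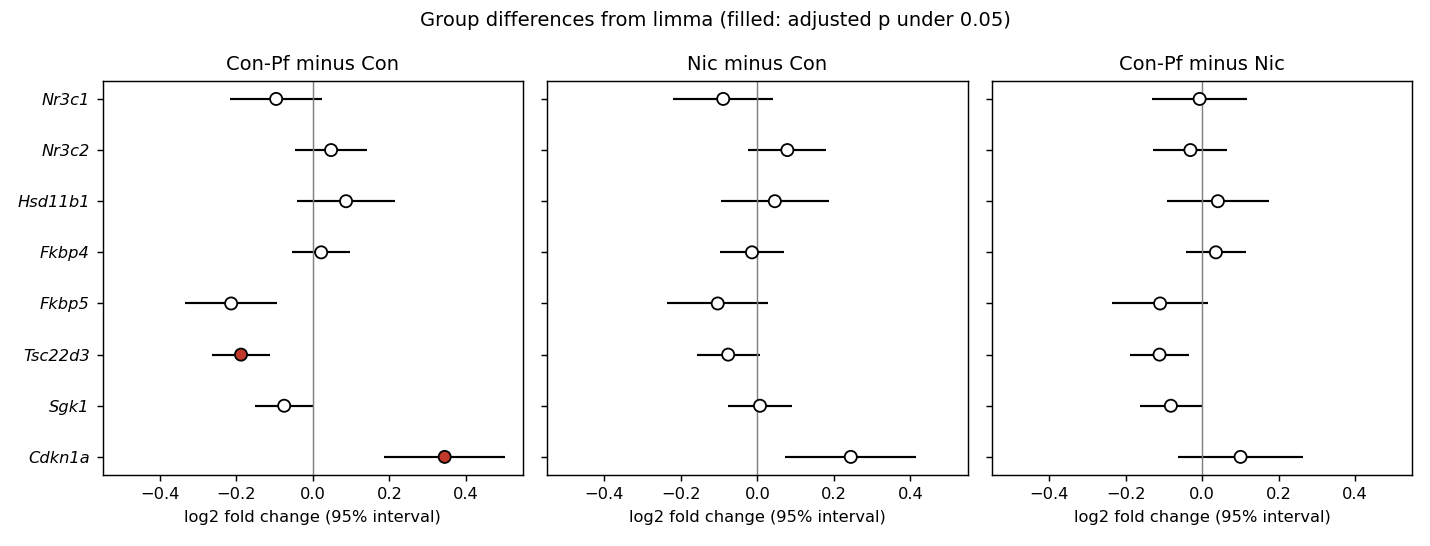
Log2 fold change of each gene in the 3 comparisons (points) with 95% intervals from limma (lines); filled points have an adjusted p under 0.05. Tsc22d3 and Cdkn1a are filled in Con-Pf minus Con, and every point is open in Nic minus Con and Con-Pf minus Nic.

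Nr3c1 encodes the glucocorticoid receptor itself. Its level ran from 10.16 to 10.50 with a median of 10.26 in Con-Pf rats, from 10.17 to 10.45 with a median of 10.28 in Nic rats, and from 10.19 to 10.65 with a median of 10.34 in Con rats. The 3 groups overlapped, and both rats at the top, Con 3 at 10.65 and Con 5 at 10.58, are those that stood apart. Con-Pf minus Con was -0.10 (standard error 0.06, 95% interval -0.22 to 0.02, adjusted p = 0.324 from limma). Without Con 3 and Con 5 the mean was 10.28 ± 0.10 in Con-Pf rats (SD, n = 10) and 10.30 ± 0.11 in Con rats (SD, n = 6), a difference of -0.02. Nic minus Con was -0.09 (95% interval -0.22 to 0.04) and Con-Pf minus Nic -0.01 (95% interval -0.13 to 0.12). Both intervals against Con reached down to -0.22.

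Nr3c2 encodes the mineralocorticoid receptor. In log2 units it ran from 9.98 to 10.23 with a median of 10.15 in Con-Pf rats, from 10.04 to 10.27 with a median of 10.19 in Nic rats, and from 9.87 to 10.24 with a median of 10.10 in Con rats. The groups overlapped over most of their range, and 9 of 10 Con-Pf rats and 5 of 7 Nic rats lay above the Con median. The difference Con-Pf minus Con was 0.05 (standard error 0.05, 95% interval -0.05 to 0.14, adjusted p = 0.533 from limma), and Nic minus Con 0.08 (95% interval -0.02 to 0.18). Con-Pf minus Nic was -0.03 (95% interval -0.13 to 0.07). The difference between both receptor probe sets on the same array, Nr3c2 minus Nr3c1, averaged -0.14 ± 0.09 in Con-Pf rats (SD, n = 10), -0.12 ± 0.15 in Nic rats (SD, n = 7) and -0.29 ± 0.17 in Con rats (SD, n = 8), with overlapping ranges. Without Con 3 and Con 5 the Con mean was -0.22 ± 0.13 (SD, n = 6). It compares rats and not the levels of the receptors, and it was not tested.

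Hsd11b1 encodes the enzyme that turns inert 11-dehydrocorticosterone back into corticosterone inside cells. Levels of Hsd11b1 ran from 8.41 to 8.67 with a median of 8.47 in Con-Pf rats, from 8.31 to 8.54 with a median of 8.46 in Nic rats, and from 8.00 to 8.69 with a median of 8.44 in Con rats. The Con range enclosed both other groups, with Con 5 at 8.00 and Con 3 at 8.24 the lowest of all 25 rats. The mean difference Con-Pf minus Con was 0.09 (95% interval -0.04 to 0.22, adjusted p = 0.406 from limma) and -0.01 without these rats. Nic minus Con was 0.05 (95% interval -0.09 to 0.19) and likewise turned, to -0.05, without them. Within groups its level ran with that of the ribosomal protein genes (r = 0.81 over 25 arrays, 0.55 over the 23 without Con 3 and Con 5). The part of this in the group values was not tested.

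**Figure D2:**
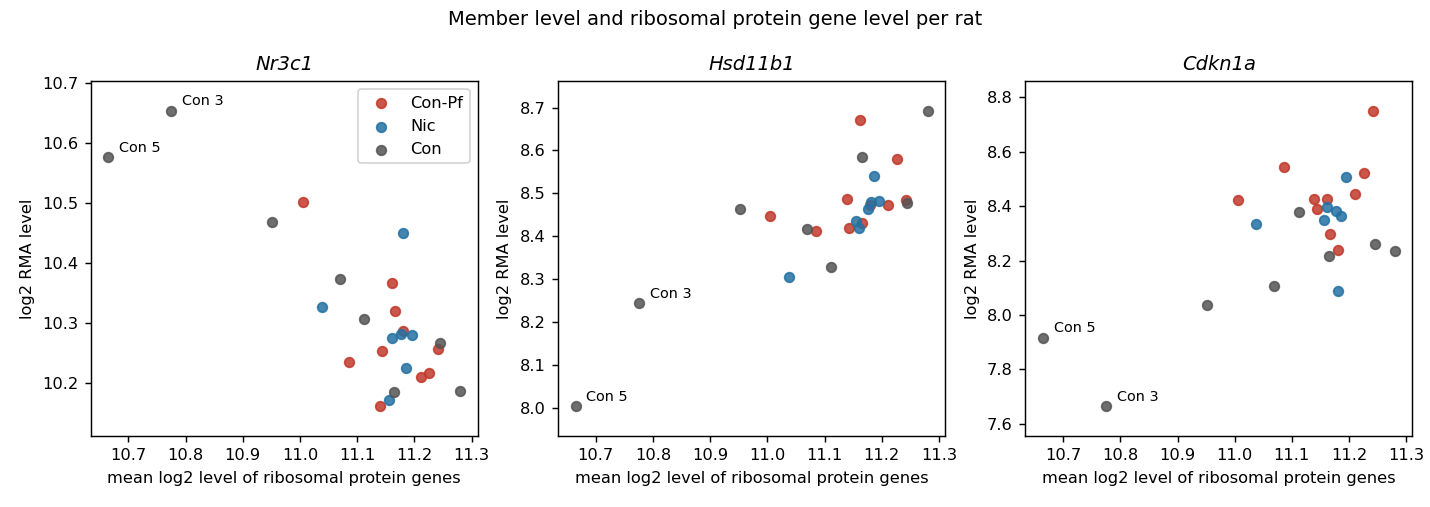
Level of Nr3c1, Hsd11b1 and Cdkn1a (vertical axes, log2) against the mean log2 level of the ribosomal protein genes (horizontal axes), 1 point per rat, coloured by group. Con 3 and Con 5 lie at the far left of each panel, at the top for Nr3c1 and at the bottom for Hsd11b1 and Cdkn1a.

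Fkbp4 encodes FKBP52, the co-chaperone that favours hormone binding and nuclear entry of the receptor. Its level ran from 9.32 to 9.55 with a median of 9.43 in Con-Pf rats, from 9.27 to 9.45 with a median of 9.42 in Nic rats, and from 9.33 to 9.53 with a median of 9.39 in Con rats. No group stood apart. For Con-Pf minus Con the value was 0.02 (95% interval -0.05 to 0.10, adjusted p = 0.744 from limma), Nic minus Con was -0.01 (95% interval -0.10 to 0.07) and Con-Pf minus Nic was 0.04 (95% interval -0.04 to 0.12). The 3 intervals reached no further than 0.12 in size.

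Fkbp5 encodes FKBP51, which acts against FKBP52 on the receptor and is itself induced by it. Its level ran from 8.90 to 9.35 with a median of 9.20 in Con-Pf rats, from 9.16 to 9.42 with a median of 9.25 in Nic rats, and from 9.14 to 9.48 with a median of 9.38 in Con rats. All 10 Con-Pf rats lay below the Con median and 4 below every Con rat, but the ranges overlapped, with Con-Pf 8 at 9.35 the highest of its group and Con 6 at 9.14 the lowest of its own. Con-Pf minus Con was -0.21 (standard error 0.06, 95% interval -0.33 to -0.09), with an unadjusted p of 0.00118 and an adjusted p of 0.0658 from limma, which did not pass. It passed without Con 6 (adjusted p = 0.0258 from limma), without Con-Pf 8 (0.0315) and after a further quantile normalization (0.0287). Without both Con 3 and Con 5 the difference was -0.17 (adjusted p = 0.396 from limma). Over the other settings and omissions the adjusted p lay between 0.0513 and 0.470, the highest being the value with Con-Pf 9 and Con-Pf 10 counted as Con.

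In Nic rats Fkbp5 lay between the other groups: Nic minus Con was -0.10 (95% interval -0.24 to 0.03, adjusted p = 0.391 from limma) and Con-Pf minus Nic was -0.11 (95% interval -0.24 to 0.02, unadjusted p = 0.0837 from limma). The test did not separate neighbours in this order. The difference Fkbp5 minus Fkbp4 on the same array averaged -0.29 ± 0.16 in Con-Pf rats (SD, n = 10), -0.15 ± 0.10 in Nic rats (SD, n = 7) and -0.06 ± 0.11 in Con rats (SD, n = 8). It was lowest in Con-Pf rats, as Fkbp5 alone was, and the ranges overlapped.

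Tsc22d3 encodes GILZ, a leucine zipper protein that the receptor induces directly and that carries part of the anti-inflammatory action of glucocorticoids. Its level ran from 8.04 to 8.25 with a median of 8.20 in Con-Pf rats, from 8.24 to 8.32 with a median of 8.29 in Nic rats, and from 8.27 to 8.48 with a median of 8.36 in Con rats. Every Con-Pf rat lay below every Con rat, which holds in this direction for 0.0411% of all probe sets, and 8 of 10 Con-Pf rats lay below every Nic rat. Tsc22d3 fell to a mean of 8.17 ± 0.07 in Con-Pf rats (SD, n = 10), against 8.36 ± 0.08 in Con rats (SD, n = 8). Con-Pf minus Con was -0.19 (standard error 0.04, 95% interval -0.26 to -0.11, adjusted p = 0.00542 from limma), so that the linear level fell by 12.2%.

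The change was small in size, and so was the spread: the SD of Tsc22d3 within groups was 0.068, against a median of 0.121 over all probe sets kept, and by p it ranked 60 in this comparison. The call was kept when any 1 of the 25 arrays was left out (adjusted p = 0.00390 to 0.0167 from limma) and without Con 3 and Con 5 (0.00881). With a replicate block, over replicates 1 to 7, the call was lost (-0.17, adjusted p = 0.0555 from limma). Among the settings in which the gene was tested with no replicate block, the call was lost only when Con-Pf 9 and Con-Pf 10 were counted as Con (-0.10, adjusted p = 0.422 from limma). These rats, at 8.08 and 8.04, had the lowest levels of all 25, and without them the difference was -0.16 (adjusted p = 0.0263 from limma).

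Nic rats again lay between. Their Tsc22d3 levels were close together, at 8.28 ± 0.03 (SD, n = 7), and all 7 lay below the Con median, 3 of them below every Con rat. Nic minus Con was -0.08 (95% interval -0.16 to 0.01, adjusted p = 0.330 from limma) and Con-Pf minus Nic was -0.11 (95% interval -0.19 to -0.03, unadjusted p = 0.00693, adjusted p = 0.684 from limma). Neither passed.

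Sgk1 encodes a serum- and glucocorticoid-induced kinase that acts on ion channels and transporters, and in brain it is rich in oligodendrocytes. Sgk1 levels ran from 10.81 to 11.05 with a median of 10.95 in Con-Pf rats, from 10.92 to 11.06 with a median of 11.03 in Nic rats, and from 10.91 to 11.12 with a median of 10.99 in Con rats. The groups overlapped, and 4 of 10 Con-Pf rats lay below every Con and every Nic rat. Con-Pf minus Con was -0.07 (standard error 0.04, 95% interval -0.15 to 0.002, adjusted p = 0.241 from limma) and Con-Pf minus Nic was -0.08 (95% interval -0.16 to -0.001, unadjusted p = 0.0468, adjusted p = 0.999 from limma). Nic minus Con was 0.01 (95% interval -0.08 to 0.09).

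Cdkn1a encodes p21, an inhibitor of cyclin-dependent kinases that p53, glucocorticoids and other signals induce. Its level ran from 8.24 to 8.75 with a median of 8.43 in Con-Pf rats, from 8.09 to 8.51 with a median of 8.36 in Nic rats, and from 7.67 to 8.38 with a median of 8.16 in Con rats. All 10 Con-Pf rats lay above the Con median and 8 above every Con rat, with Con 3 at 7.67 and Con 5 at 7.92 the lowest of all. Cdkn1a rose to a mean of 8.45 ± 0.14 in Con-Pf rats (SD, n = 10), against 8.10 ± 0.23 in Con rats (SD, n = 8). Con-Pf minus Con was 0.34 (standard error 0.08, 95% interval 0.19 to 0.50, adjusted p = 0.0188 from limma), a level 27.0% higher.

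The call of Cdkn1a was less steady. It was lost without Con 5 (0.32, adjusted p = 0.0554 from limma) and without both Con 3 and Con 5 (0.24, adjusted p = 0.128), where the Con mean was 8.21 ± 0.12 (SD, n = 6). The methods' t-test, fitting the 2 groups alone and testing with no filter lost it too (adjusted p = 0.198, 0.0565 and 0.0513). So did leaving out Con-Pf 9 and Con-Pf 10 (0.32, adjusted p = 0.0694 from limma) and counting them as Con (0.24, 0.362). The mean level of Nic rats was 8.35 ± 0.13 (SD, n = 7). Nic minus Con was 0.24 (95% interval 0.07 to 0.42, unadjusted p = 0.00709, adjusted p = 0.268 from limma) and Con-Pf minus Nic was 0.10 (95% interval -0.06 to 0.26), and neither passed.

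**Figure D3:**
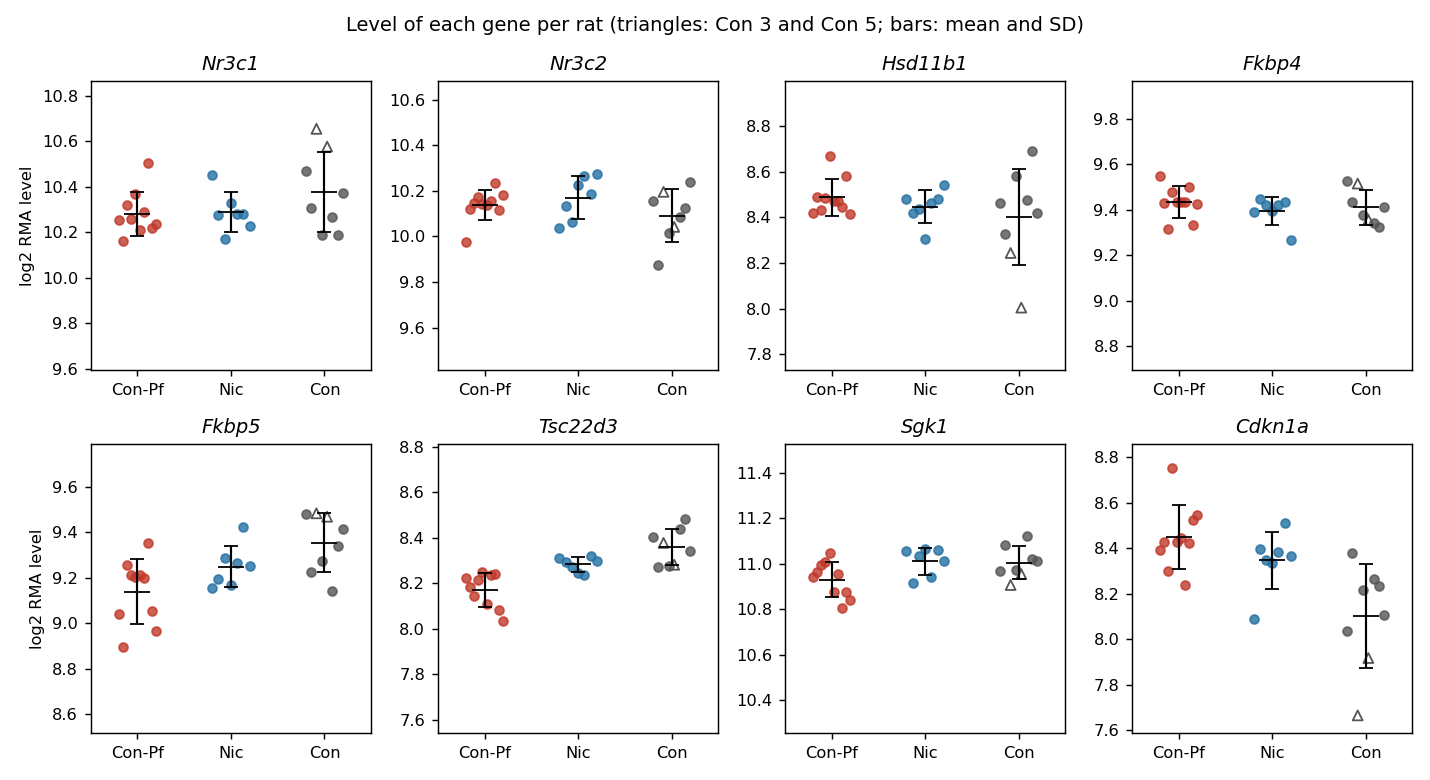
Log2 level of each of the 8 genes in every rat, by group, with the mean and SD as a bar; triangles are Con 3 and Con 5, and all panels span the same number of log2 units. Con-Pf and Con points do not overlap for Tsc22d3, and the triangles are the lowest Cdkn1a points and the highest Nr3c1 points.

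The directions of the 3 induced genes and Fkbp5 in Con-Pf minus Con were not alike: Tsc22d3 fell, Cdkn1a rose, and Fkbp5 and Sgk1 had values of -0.21 and -0.07 that did not pass. Other genes that glucocorticoids induce were likewise divided. Of 30 listed, 21 were measured, of which 2 rose, 1 fell and 18 did not pass, and their median log2 fold change was 0.02, against 0.02 over all probe sets kept. Of all probe sets 1.00% were called higher and 0.260% lower. At an unadjusted p under 0.05 limma gave 12 of the 21 and the methods' t-test 10, against the 22.0% of all probe sets that limma gave. Dusp1, a phosphatase that switches off MAP kinases and is also an immediate early gene, averaged 10.03 ± 0.32 in Con-Pf rats (SD, n = 10) and 9.33 ± 0.23 in Con rats (SD, n = 8), a rise of 0.70 (adjusted p = 0.00131 from limma). Bcl6, a transcriptional repressor, rose by 0.33 (adjusted p = 0.00111 from limma).

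Klf9, a Krüppel-like transcription factor that the receptor induces in neurons, fell to 10.58 ± 0.14 in Con-Pf rats (SD, n = 10), against 11.00 ± 0.20 in Con rats (SD, n = 8), that is -0.42 in log2 units (adjusted p = 0.000890 from limma). All 3 calls were kept without Con 3 and Con 5. The methods' t-test kept that of Dusp1 alone, and counting Con-Pf 9 and Con-Pf 10 as Con likewise left Dusp1 and lost Klf9 and Bcl6 (adjusted p = 0.188 and 0.262 from limma). Pdk4, a kinase that shuts down pyruvate dehydrogenase, had a value of 0.27 and missed the threshold (adjusted p = 0.0506). In Con-Pf minus Nic only Dusp1 of the 21 passed (0.64, adjusted p = 0.0172 from limma), a call lost with the methods' t-test (0.170) and without Nic 3, Nic 5 or Nic 7 (0.0559, 0.0617 and 0.0701 from limma). At an unadjusted p under 0.05 limma gave 6 of the 21 there and the methods' t-test 8, against 4.36% of all probe sets by limma. In Nic minus Con 0 of the 21 passed with limma. There 6 had an unadjusted p under 0.05, also 6 by the methods' t-test, against 16.2% of all probe sets by limma. Klf9 was at -0.20 and Bcl6 at 0.17. The called genes of the list thus went in both directions, as Tsc22d3 and Cdkn1a did.

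**Figure D4:**
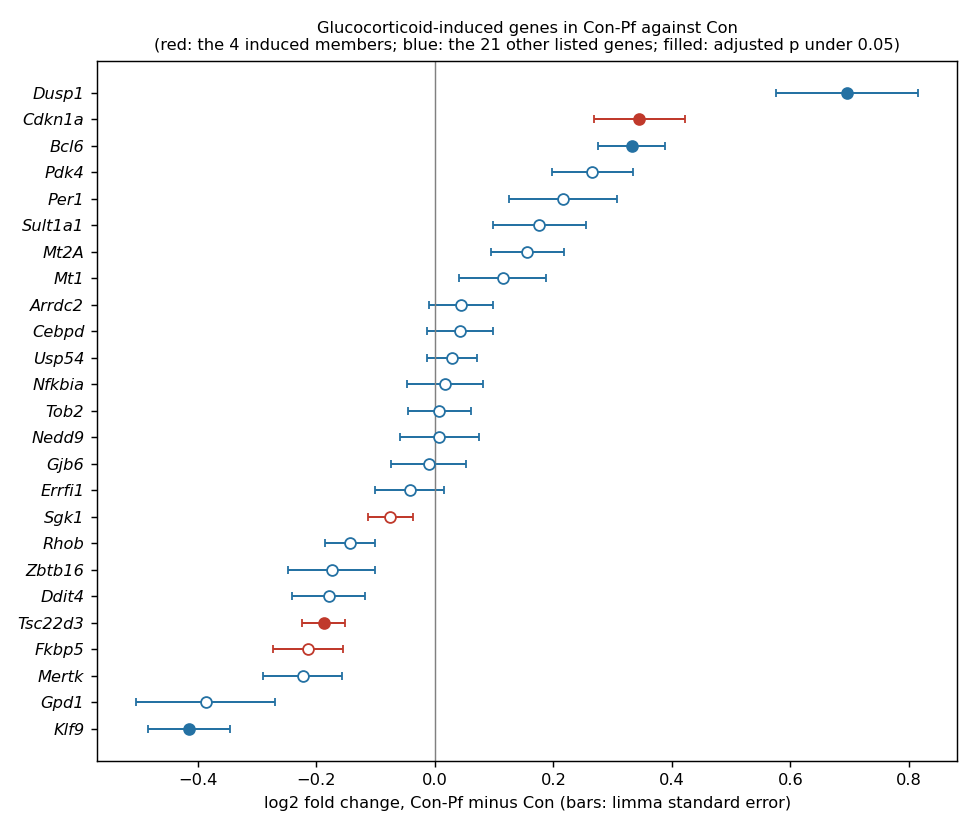
Log2 fold change in Con-Pf minus Con with limma's standard error for 25 glucocorticoid-induced genes, 4 members (red) and 21 other listed genes (blue), ordered by value; filled points have an adjusted p under 0.05. Filled points stand at both ends, with Klf9 and Tsc22d3 below 0 and Dusp1, Cdkn1a and Bcl6 above it.

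No gene of the machinery around the receptor passed the test. Of 21 listed chaperones, coregulators and steroid enzymes, 18 were measured and 0 passed in any of the 3 comparisons with limma. At an unadjusted p under 0.05 limma gave 3 of them in Con-Pf minus Con, 3 in Nic minus Con and 0 in Con-Pf minus Nic, and the methods' t-test gave 3, 3 and 1. Over all probe sets limma gave 22.0%, 16.2% and 4.36%. The smallest p in Con-Pf minus Con belonged to Dnajb1, a heat shock protein 40 co-chaperone, at 0.16 (unadjusted p = 0.00381, adjusted p = 0.0990) and to Abcb1a, a transporter that keeps some steroids out of brain, at -0.24 (adjusted p = 0.121). Both heat shock protein 90 genes that carry the receptor were close to 0, with Hsp90aa1 at 0.03 and Hsp90ab1 at 0.005. Stip1, which links heat shock proteins 70 and 90, was at 0.09. The peptides and receptors of the stress axis, which act mainly in hypothalamus and pituitary, could not be compared: 10 of 12 listed genes were in the table, among them Crh, Pomc and Avp, and 0 passed the filter on low levels.

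Cdkn1a is also a target of p53. Of 12 other p53 targets listed, 9 were measured. In Con-Pf minus Con 1 rose, against 1.00% of all probe sets, and 8 did not pass. The one that rose was Gadd45a, a growth arrest and DNA damage gene that other stresses induce as well, by 0.40 (adjusted p = 0.0219 from limma). Like that of Cdkn1a, its call was lost without Con 5 (adjusted p = 0.0611) and without both Con 3 and Con 5 (0.28, adjusted p = 0.194), and it was also lost without Con 3 (0.0682), without Con 1 (0.0530) or without Con-Pf 9 and Con-Pf 10 (0.0647). The methods' t-test (0.230), limma on the 2 groups alone (0.0631), testing with no filter (0.0563) and counting Con-Pf 9 and Con-Pf 10 as Con (0.314) lost it too. Tp53inp1 was at 0.16 (adjusted p = 0.0534), Zmat3 at -0.13 (adjusted p = 0.165 from limma), Bax at 0.10 and Mdm2, the main feedback inhibitor of p53, at 0.03. Of the 9, called or not, 6 were higher and 3 lower. Of 14 listed immediate early genes, which neuronal activity induces within minutes, 11 were measured. In Con-Pf minus Con 9 rose, against 1.00% of all probe sets. In Con-Pf minus Nic 7 rose, against 0.185% of all probe sets called either way. Many of the listed genes were reported by the study as higher in Con-Pf rats on these same arrays, so these counts are no independent result. The median log2 fold change of these 11 genes was 1.07 and 0.76. Within groups, the correlations of the members with the mean of these genes lay between -0.32 (Nr3c2) and 0.19 (Fkbp4) over 25 arrays.

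Among themselves the members varied together only in part. Over all 25 arrays Fkbp5 and Tsc22d3 correlated at r = 0.59, and at 0.24 once the group means were removed. For Nr3c1 and Fkbp5 these values were 0.60 and 0.55. Nr3c1 and Cdkn1a ran in opposite ways, with r = -0.70, and -0.68 within groups, or -0.44 within groups over the 23 arrays without Con 3 and Con 5. These are descriptions over arrays that were normalised together.

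The genes most alike in pattern were named by the highest Pearson correlation over the 25 arrays among genes with 1 symbol. For Tsc22d3 they were Bhlhe40, a clock-linked repressor (r = 0.79, or 0.43 within groups), Nt5e, the ectonucleotidase that makes adenosine (0.78, or 0.59), and the thiamine transporter gene Slc19a3 (0.76, or 0.29). For Fkbp5 they were Nt5dc3 (0.86, or 0.78 within groups), Chst15 (0.83) and Sec14l1 (0.82). Cdkn1a was most like Ptgds, the prostaglandin D synthase that meninges, choroid plexus and oligodendrocytes make (0.88, or 0.81 within groups and 0.64 without Con 3 and Con 5). Tango2 and Mettl27 came next (0.85 each, or 0.60 and 0.64 within groups without Con 3 and Con 5).

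Nr3c1 was most like Hif1an (0.94), Shoc2 and Gnl3l (0.91 each). Within groups without Con 3 and Con 5 these values were 0.89, 0.84 and 0.87. Hsd11b1 was most like the ribosomal protein gene Rpl7a (0.89), Fkbp2 (0.87) and Rpl13 (0.86), or 0.76, 0.75 and 0.69 within groups without both rats. Nr3c2 was most like Slitrk3, a synaptic adhesion gene (0.83), Plxdc1 (0.77) and Asic4 (0.74). Fkbp4 and Sgk1 had no gene above 0.68: Fkbp4 was nearest to Idh3b, Tsn and Nudt12 (0.65 each), and Sgk1 to Ptbp3 (0.68), Ccdc34 and Slc19a1 (0.64 each).

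In bulk striatum fewer cells of a type and less RNA per cell cannot be told apart, so the members were set beside markers of cell types. Within groups Tsc22d3 ran with the mean of 5 of 6 microglial markers (r = 0.62 over 25 arrays) and of 6 of 7 endothelial markers (0.52). The microglial mean was 9.45 ± 0.06 in Con-Pf rats (SD, n = 10), against 9.47 ± 0.10 in Con rats (SD, n = 8). The endothelial one was 9.18 ± 0.06 in Con-Pf rats, against 9.24 ± 0.08 in Con rats, and that of 7 of 8 mural and meningeal markers was 8.46 ± 0.09 in Con-Pf rats, against 8.59 ± 0.08 in Con rats. Cdkn1a ran within groups with the mean of Ttr and Folr1, the 2 of 8 choroid plexus markers measured (r = 0.61, or 0.60 without Con 3 and Con 5), and with the mean of the ribosomal protein genes (r = 0.62, or 0.32 without them). Its r with the astrocyte markers was -0.52, or -0.28 without them. The choroid plexus mean spanned 7.04 to 11.82 in Con-Pf rats, 6.88 to 9.48 in Nic rats and 6.93 to 11.30 in Con rats. It averaged 8.42 ± 1.31 in Con-Pf rats, 8.06 ± 0.84 in Nic rats and 8.04 ± 1.37 in Con rats (SD). In each group the rat with the highest value, Con-Pf 4, Nic 6 and Con 2, also had the highest Cdkn1a of its group. Without Con-Pf 4 the Cdkn1a difference was 0.31 (adjusted p = 0.0386 from limma), and without Con 2 it was 0.38 (0.00719). Con 2 had the highest Cdkn1a of the Con rats, so that leaving it out could only widen the difference. Leaving out 1 rat does not test the correlation over the other rats. Nr3c1 ran opposite to the mean of the ribosomal protein genes (r = -0.79 within groups, -0.62 without Con 3 and Con 5). It also ran with the mean of 7 astrocyte markers (r = 0.75 within groups, 0.63 without Con 3 and Con 5). The astrocyte mean was 10.90 ± 0.09 in Con-Pf rats, 10.89 ± 0.07 in Nic rats and 10.95 ± 0.13 in Con rats. The part of these markers and of the ribosomal protein genes in the group values was not tested.

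**Figure D5:**
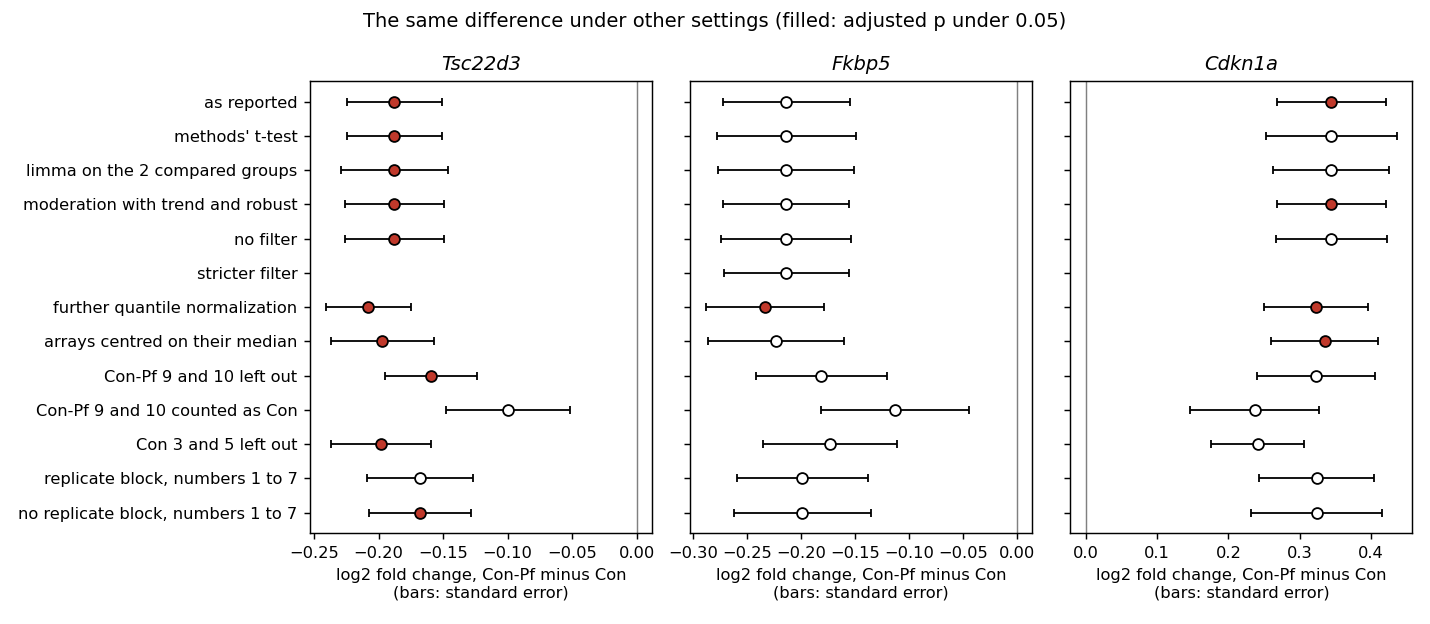
Log2 fold change of Tsc22d3, Fkbp5 and Cdkn1a in Con-Pf minus Con (horizontal axes, with standard errors) under each setting (rows); filled points have an adjusted p under 0.05, and Tsc22d3 and Cdkn1a have no point under the stricter filter, which they did not pass. Every Tsc22d3 and Fkbp5 point lies below 0 and every Cdkn1a point above it, while points are filled in 10 settings for Tsc22d3, 1 for Fkbp5 and 4 for Cdkn1a.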

How the data were processed

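The deposited values are log2 levels, 1 per probe set and array, which the authors computed by RMA (background correction, quantile normalization and probe summary). The submitters' processing notes list Affymetrix Expression Console 1.1 beside RMA. No source used here names the genome build of the array annotation. Groups came from the sample titles, and all 25 arrays were used. Gene symbols came from the platform annotation.

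Probe sets with a mean at or above the median (quantile 0.5, a log2 level of 6.97) were kept. The comparisons came from 1 linear model with a mean per group (limma 3.58.1, R 4.3.3), and p-values were adjusted by Benjamini-Hochberg over the 14607 probe sets kept. The fit was checked on simulated data that held planted differences. The number of arrays limits the precision.

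The members, lists and tests were chosen with earlier results of these data known. All 8 members are named, then up to 4 genes per list with the smallest p in Con-Pf minus Con, any called gene, and the 3 genes most alike to each member. Further list members (Hsp90aa1, Hsp90ab1 and Mdm2) were picked after their values had been seen. In lists a gene with several probe sets stands for its brightest one on average. The alternatives were the methods' t-test (unequal variances), limma on the 2 compared groups, moderation with a trend and robust, no filter, a filter at quantile 0.75, quantile normalization once more, centring on array medians, other treatments of Con-Pf 9 and Con-Pf 10, leaving out Con 3 and Con 5, a replicate block, and leaving out each array. Promoter windows were read from RefSeq (GRCr8) and figures drawn with Python 3.11.15 and matplotlib 3.10.9.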

Additional observations from a re-analysis of the deposited data

Results flagged for a closer look

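In 3 of 24 sets of values, each of 1 gene in 1 group, the lowest rat stood apart from the rest by Dixon's criterion, which flags about 1 in 20 groups by chance. Nr3c2 was at 9.98 in Con-Pf 1, Fkbp4 at 9.27 in Nic 7 and Cdkn1a at 8.09 in Nic 1. Without Nic 7 the Fkbp4 value in Nic minus Con was 0.0075, against -0.014 with it, and no call of the 8 genes was lost without any of the 3 rats.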

How the results depend on the processing

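In Nic minus Con and in Con-Pf minus Nic, 0 of the 8 genes were called under any of 37 other settings. In Con-Pf minus Con, where Tsc22d3 and Cdkn1a were called, the number of members called was 1 with the methods' t-test, with limma on the 2 compared groups, with no filter, without Con-Pf 9 and Con-Pf 10, without Con 3 and Con 5, and over replicates 1 to 7 with no replicate block. In each of these the call left was Tsc22d3. It was 0 under the stricter filter, which Tsc22d3, Cdkn1a and Hsd11b1 did not pass, and 0 with Con-Pf 9 and Con-Pf 10 counted as Con. It was 3 after a further quantile normalization, which added Fkbp5, and 1 to 3 when each array was left out in turn, 1 without Con 5 and 3 without Con 6 or Con-Pf 8.

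The correlations between the deviations of arrays with the same replicate number lay between -0.352 and 0.336, and 10 of 21 were over 0.1. For Con-Pf and Con all 7 were above 0 (0.0234 to 0.193) and 4 over 0.1, and 5 of these 14 arrays correlated best with their own number. The methods of the study describe dams assigned in blocks by body weight and groups balanced over extraction days. No source ties the replicate numbers to a shared litter or day, and not every pair was over 0.1. They were therefore not taken as pairs. With the replicate block 0 members were called, with Tsc22d3 at -0.17 (adjusted p = 0.0555 from limma) and Cdkn1a at 0.32 (0.0602), and 153 probe sets in all. Of the other calls named, the block ended those of Gadd45a (0.0724) and, in Con-Pf minus Nic, of Dusp1 (0.0501).

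Signs turned only for values that were not called. Without Con 3 and Con 5 Hsd11b1 was at -0.0058 in Con-Pf minus Con and -0.047 in Nic minus Con, and Sgk1 at -0.018 in Nic minus Con, where a further quantile normalization gave -0.020. In Con-Pf minus Nic Nr3c1 was at 0.0013 after that normalization, at 0.0073 without Con-Pf 9 and Con-Pf 10, and at 0.0073 with both taken as Con. With each array left out, Nic minus Con ranged from -0.0075 to 0.023 for Sgk1, from -0.011 to 0.087 for Hsd11b1 and from -0.026 to 0.0075 for Fkbp4, and Con-Pf minus Nic from -0.031 to 0.021 for Nr3c1. The causes were not tested.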
